A study of Mus musculus with 24 samples.

Results

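ATF4 is the transcription factor through which cells answer a shortage of amino acids, and 10 genes of its response were followed here in mouse embryonic fibroblasts (MEFs) that had lost Myc, Mlx or both. The genes were Atf4, Atf5, Ddit3, Trib3, Chac1, Sesn2, Asns, Slc7a11, Slc7a5 and Slc3a2, and they were taken by name from the 41710 gene rows of each expression table. A row under the plain name was found for 9 of them. Ddit3 is held as 2 rows, of which the row of ENSMUSG00000025408 carried the reads and was used, and the row of ENSMUSG00000116429, an overlapping gene model, was at 0 in all 24 libraries.

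Myc binds DNA with Max and drives genes of growth and biosynthesis, and Mlx does so with the nutrient-responsive factors MondoA and ChREBP. The study asked what each arm of this network, alone and jointly, contributes to gene expression in fibroblasts. MEFs came from pools of E14 to E16 embryos that carried floxed alleles of Myc, Mlx or both and 2 copies of a Cre recombinase fused to the estrogen receptor under the ROSA26 promoter. Knockout cells, named MycKO, MlxKO and DKO (both genes), had been treated with 4-hydroxytamoxifen (4OHT) at 500 nM. WT cells had not, with the ethanol vehicle in its place per the labels and medium free of 4OHT for immortalized cells per the supplement, so that all groups carried floxed alleles and Cre and the knockout groups alone had been exposed to 4OHT. Primary MEFs were taken at day 10, and immortalized MEFs had been made with a lentivirus for the SV40 T antigen before excision. Each of the 8 groups had 3 poly-A RNA libraries. Per the study's results the 3 WT lines behaved similarly, and 1 of them served as control in most cases. Each line came from 1 pool of embryos, so that genotype, embryo pool and 4OHT exposure cannot be told apart, and p-values measure only the spread between libraries of a line. Per the study, primary MycKO and DKO cells were growth-arrested when profiled. Most immortalized MycKO cells had become tetraploid or pseudo-tetraploid, while its results describe immortalized DKO cells as euploid. These states go with genotype, and their part in the results below was not tested. The study calls the primary libraries biological replicates, the labels call the RNAs triplicate sets, and how the replicates were kept apart is not given in the sources used here.

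When uncharged tRNA, misfolded protein or other stresses activate a kinase of the translation factor eIF2alpha, general protein synthesis falls while the Atf4 mRNA is translated more. ATF4 protein then raises genes for amino acid import, amino acid synthesis and tRNA charging, and it also raises its own brakes. The level of Atf4 mRNA therefore does not report the activity of the protein, and only mRNA was measured here. In proliferating cells many of the import and synthesis genes are targets of Myc as well.

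ATF4 acts with C/EBP proteins at a composite element whose core is TGATGNAA. In windows from 250 bases before to 50 bases after the transcription start, given by RefSeq on GRCm38.p6 and placed on GRCm39 by exact match, this core was searched on either strand. It lay in a window of 4 of the 9 members that have one, against 4.51% of 27025 genes. The members were picked as genes of the ATF4 response, so this share is a description, and no test of enrichment was run. No window was at hand for Slc7a5. The E-box CACGTG, to which Myc and Mlx dimers bind, was in 0 of the 9, against 8.09% of genes, and the element TGACGTCA in 0 of the 9, against 2.03%. The matches found do not overlap each other, and absence of the letters from a window says nothing of binding elsewhere. The sites are shown because the members that hold a core differed in MycKO against WT. Asns and Slc7a11 fell in both kinds of cell. Trib3 and Chac1 were not called by limma in MycKO cells of either kind with all libraries at the deposited scaling. Without the immortalized WT library described below, Trib3 fell in immortalized MycKO cells as well. Whether these members differ from each other was not tested. Each stretch is read 5′ to 3′ on the gene's strand with the core in capitals. For Asns, Chac1 and Trib3 it is the 30 bases around the core, since exons of some annotated transcripts reach there. For Slc7a11 it is 80 bases before every annotated exon, and it holds the core on both strands.
Asns, chr6:7693214-7693243, minus strand: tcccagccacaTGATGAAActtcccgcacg
Slc7a11, chr3:50398072-50398151, minus strand: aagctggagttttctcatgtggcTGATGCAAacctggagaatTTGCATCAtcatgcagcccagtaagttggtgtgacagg
Chac1, chr2:119181519-119181548, plus strand: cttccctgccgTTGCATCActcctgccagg
Trib3, chr2:152185948-152185977, minus strand: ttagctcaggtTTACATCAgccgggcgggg
Counted from the RefSeq start, the core began at base -23 in Asns, at -66 and -47 in Slc7a11, at -193 in Chac1 and at 15 in Trib3.

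The libraries held 15986856 to 20966163 reads on genes, and 3 reads, the limit that a count of 0 allows, came to 0.145 to 0.196 CPM (reads scaled to library depth by the authors). These limits cover counting error only. Myc was at 100.1, 89.8 and 91.8 CPM in primary WT libraries and at 25.8, 26.8 and 26.8 CPM in MycKO libraries, a fall by 1.79 ± 0.071 on the log2 scale (SE, limma adjusted p = 5.95e-11). Mlx was at 26.0, 20.5 and 24.5 CPM in primary WT and at 13.0, 13.5 and 14.0 CPM in MlxKO libraries (log2 fold change -0.76 ± 0.11 (SE), adjusted p = 0.000405). In immortalized cells Myc was likewise lower in MycKO (-2.41 ± 0.43) and DKO (-3.38 ± 0.43), and Mlx in MlxKO (-0.71 ± 0.16), whereas Mlx in immortalized DKO missed the threshold (log2 fold change -0.44 ± 0.16 (SE), adjusted p = 0.0694) and passed it without the WT library described next (-0.52 ± 0.16, adjusted p = 0.034). Exons of Psmc3ip on the opposite strand overlap 60.04% of the canonical Mlx transcript, and whether counting used strand is not given in the sources used here.

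One library stood apart. In immortalized WT library 4, 10.7% of genes differed more than 2-fold from the mean of the other WT libraries, against 3.63% or less in each of the other 23, and Myc was at 178 CPM against 48.1 and 39.9 CPM in the other WT libraries. For comparisons with immortalized WT, a value or count without it stands beside that with all libraries where it changes a call or moves them by over 1.5 times. All 10 fibroblast markers were at 1 CPM or more in every group. Macrophage markers (10 genes, Ptprc and Csf1r among them) summed to 309 to 607 CPM in primary WT, 337 to 416 CPM in MlxKO, 52.98 to 79.5 CPM in MycKO and 105 to 243 CPM in DKO libraries, and to 1.48 to 5.8 CPM over all immortalized libraries, where 8 or 9 of the 10 were under 1 CPM. The part of these cells in the primary results below was not tested, and in bulk RNA fewer cells of a type and less RNA per cell cannot be told apart. Endothelial (6 genes) and epithelial (6 genes) markers summed to no more than 19.1 and 19.9 CPM in any library. Of 6 muscle markers, Acta1 and in primary cells Des were at 1 CPM or more, and their sum ran from 9.49 to 231 CPM, highest in immortalized MycKO cells.

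The 10 genes did not move as a unit. In amino acid supply, Asns, Slc7a11 and Slc7a5 fell in MycKO and DKO against WT in both kinds of cell. Slc3a2 was not called with all libraries at the deposited scaling. Between immortalized DKO and MlxKO, Myc loss in cells without Mlx, 0 of these 4 genes were called, with a median log2 fold change of 0.043. Each transcription factor rose in at least 1 knockout, and limma called none lower with all libraries at the deposited scaling. DESeq2 called 1 of them lower in immortalized MlxKO, and limma with library-total scaling 1 in primary MycKO. The genes of feedback and turnover were called in few comparisons. Against WT, with the threshold at an adjusted p of 0.05 over all genes tested, 5 of the 10 members were called in primary MycKO (2 higher and 3 lower), 1 in MlxKO (higher) and 4 in DKO (1 higher and 3 lower). Over all 13101 genes tested in primary cells the share called was 42.3% in MycKO (20.4% higher and 21.9% lower), 8.88% in MlxKO (3.75% and 5.14%) and 49.5% in DKO (24.0% and 25.5%). The number of members called was therefore near that of genes at large. In immortalized cells 5 members were called in MycKO (2 higher and 3 lower), 3 in MlxKO (all lower) and 5 in DKO (2 higher and 3 lower), where 48.0% of 12880 genes were called in MycKO (24.4% higher and 23.5% lower), 38.9% in MlxKO (19.1% and 19.9%) and 18.9% in DKO (10.4% and 8.51%). The members' count stood above that share in DKO, where it was 2 without DKO library 13 or 15, and near or below it in MycKO and MlxKO. Without WT library 4 the counts were 7, 5 and 5, the additions being falls of Trib3 and Slc3a2 in MycKO and of Atf5 and Trib3 in MlxKO, and the shares of all genes called were 54.0%, 46.8% and 22%.

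**Figure D1:**
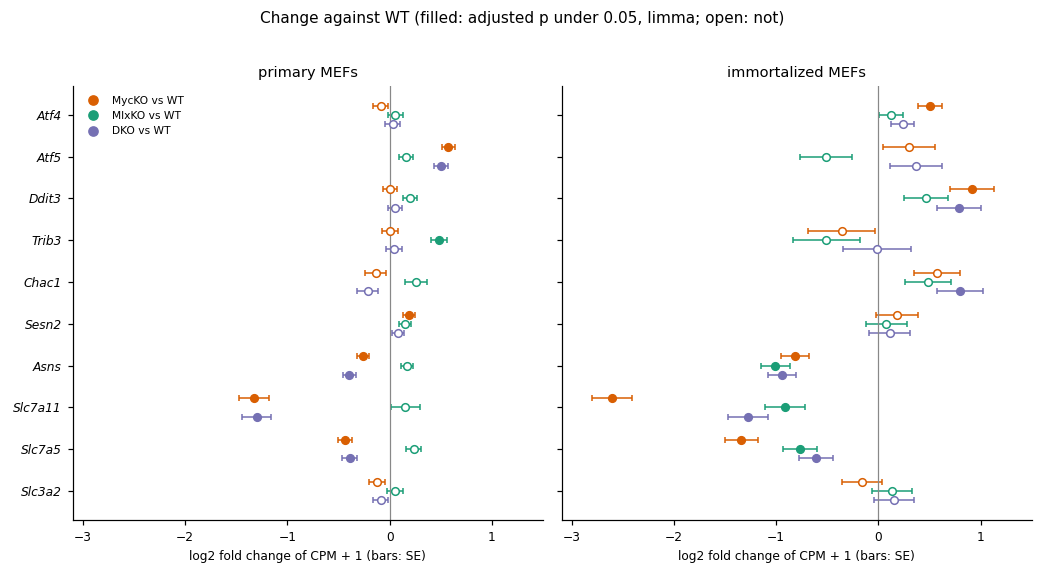
The log2 fold change of CPM + 1 against WT is plotted for each member in primary (left) and immortalized (right) MEFs, with bars for the standard error and filled points for an adjusted p under 0.05. Asns, Slc7a11 and Slc7a5 lie left of 0 in MycKO and DKO cells of both kinds, and in MlxKO cells they lie right of 0 in primary and left of 0 in immortalized MEFs.

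The transcription factors come first. Atf4 (ENSMUSG00000042406, chr15:80139372-80141745, plus strand) encodes the factor itself. In primary libraries it was at 287, 281 and 245 CPM in WT, 290.2, 265 and 286 CPM in MlxKO, 266, 229.8 and 269 CPM in MycKO and 278, 269 and 281 CPM in DKO cells. The libraries of each knockout overlapped those of WT, and the log2 fold changes, -0.088 ± 0.073 for MycKO, 0.053 ± 0.073 for MlxKO and 0.029 ± 0.073 for DKO, had adjusted p-values of 0.357, 0.717 and 0.77. In immortalized MycKO cells Atf4 was at 288, 282 and 295 CPM, and each of these libraries lay above the WT libraries at 210.4, 231 and 172 CPM (in library order, library 4 last). The rise was 0.50 ± 0.12 (adjusted p = 0.00399), and 0.38 ± 0.10 without WT library 4 (adjusted p = 0.00601). MlxKO libraries at 201, 231 and 234 CPM and DKO libraries at 250.4, 227 and 240.8 CPM overlapped WT. Their values were 0.13 ± 0.12 and 0.24 ± 0.12 (adjusted p = 0.407 and 0.171), and 0.0053 ± 0.10 and 0.12 ± 0.10 without WT library 4.

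Atf5 (ENSMUSG00000038539, chr7:44461680-44466082, minus strand) encodes a related factor that is linked to mitochondrial stress. It was at 371, 362 and 347 CPM in primary WT, 564, 477 and 573 CPM in MycKO and 509, 510.1 and 514 CPM in DKO libraries. Both knockouts of Myc lay wholly above WT, with rises of 0.57 ± 0.067 (adjusted p = 3.9e-06) and 0.51 ± 0.067 (adjusted p = 1.14e-05). MlxKO libraries at 419, 393 and 397 CPM were above WT too, but the difference of 0.16 ± 0.067 did not pass the test (adjusted p = 0.144). Immortalized cells gave another picture. WT libraries were at 298, 283.4 and 127 CPM, and library 4 was at less than 1 in 2 of the level of the others, while MlxKO libraries were at 135, 165 and 164 CPM. The MlxKO difference was -0.51 ± 0.25 (adjusted p = 0.126) with library 4 and a fall by 0.91 ± 0.12 (adjusted p = 6.23e-05) without it. DESeq2 called this fall with all libraries. MycKO libraries were at 268, 274 and 273 CPM and DKO libraries at 330.0, 264 and 266 CPM, within the range of WT apart from 1 DKO library. Neither passed (0.30 ± 0.25 and 0.37 ± 0.25, adjusted p = 0.345 and 0.315), and without library 4 the values were -0.10 ± 0.12 and -0.027 ± 0.12. Exons of Il4i1 and Nup62 on the opposite strand overlap 4.51% of the canonical Atf5 transcript.

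Ddit3 (ENSMUSG00000025408, chr10:127124268-127132163, plus strand) encodes CHOP, a partner of ATF4 in prolonged stress. Primary WT libraries were at 50.6, 49.1 and 46.6 CPM, MycKO at 48.9, 45.5 and 52.3 CPM and DKO at 52.7, 47.9 and 51.4 CPM, and these overlapped. MlxKO libraries at 56.5, 55.1 and 56.8 CPM lay above WT with a difference of 0.20 ± 0.07 (adjusted p = 0.0886). Immortalized libraries were at 21.8, 22.2 and 11.5 CPM in WT, 27.4, 23.8 and 23.8 CPM in MlxKO, 39.7, 31.7 and 32.5 CPM in MycKO and 36.1, 27.5 and 31.4 CPM in DKO cells. Every knockout library was above every WT library. Ddit3 rose by 0.91 ± 0.21 in MycKO (adjusted p = 0.00411) and 0.79 ± 0.21 in DKO (adjusted p = 0.0235), and by 0.62 ± 0.14 and 0.50 ± 0.14 without WT library 4 (adjusted p = 0.00206 and 0.0211), while MlxKO did not pass (0.47 ± 0.21, adjusted p = 0.0999, and 0.17 ± 0.14 without that library). The DKO call was lost without DKO library 13 or 15. Exons of Mars1, the methionyl-tRNA synthetase gene on the opposite strand, overlap 79.5% of the canonical Ddit3 transcript, so that without strand the reads of this gene cannot be told apart from those of Mars1.

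**Figure D2:**
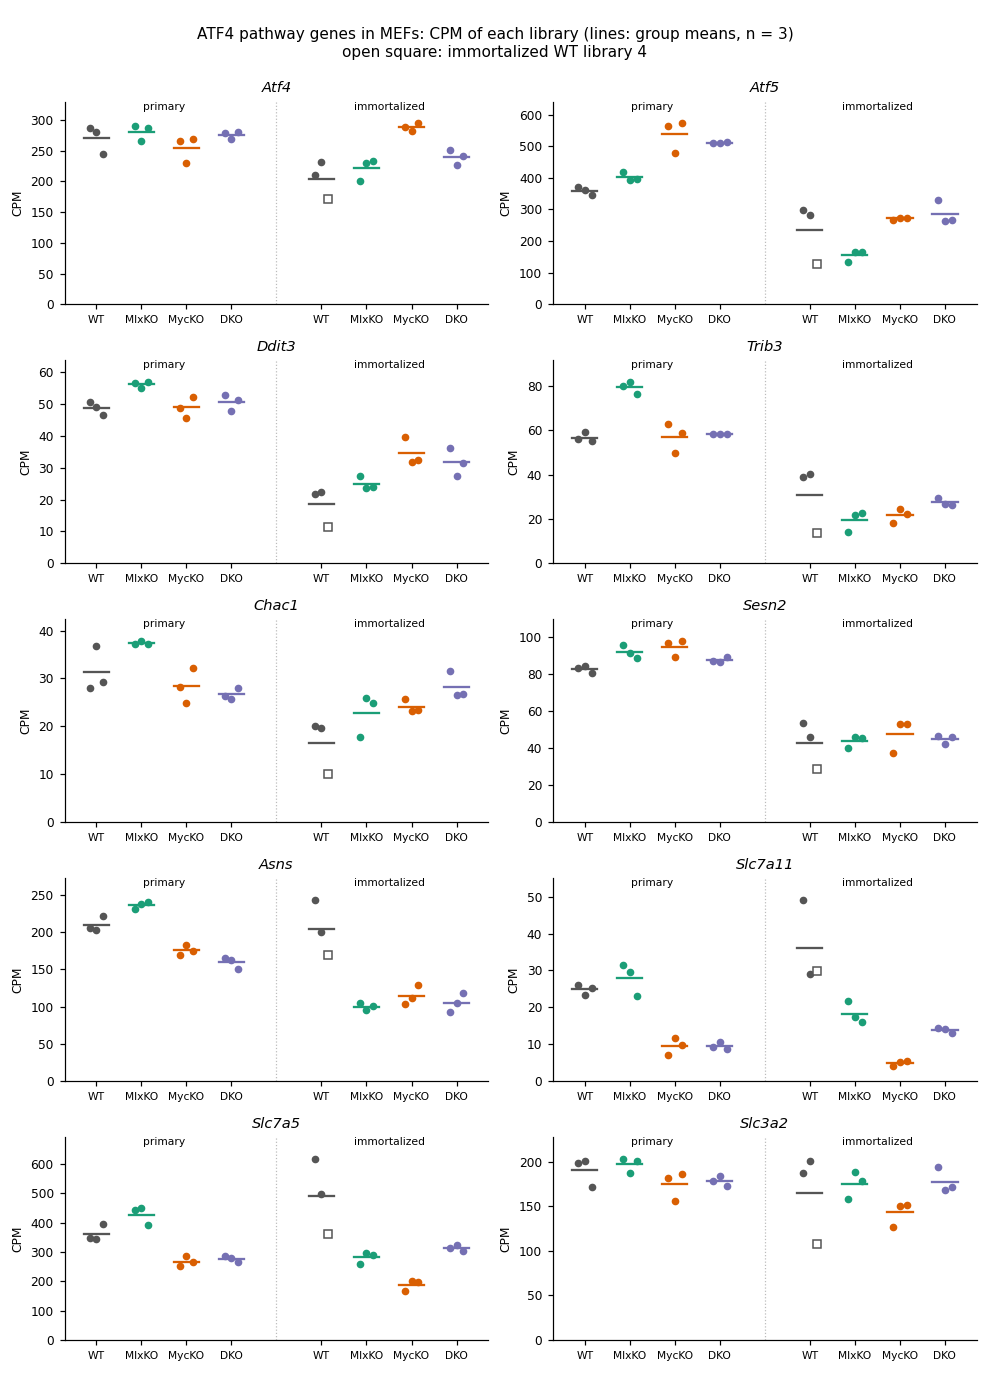
The CPM of each library is plotted for the 10 members, with 3 libraries and their mean per genotype and an open square for immortalized WT library 4. In Slc7a11 the MycKO and DKO libraries sit below all WT libraries in both kinds of cell. The tables of primary and immortalized cells were scaled separately, so levels are to be compared within a kind of cell.

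Feedback and turnover were represented by Trib3, Chac1 and Sesn2. Trib3 (ENSMUSG00000032715, chr2:152179337-152191958, minus strand) encodes a pseudokinase that ATF4 and CHOP raise and that dampens their activity. It was at 56.0, 59.1 and 55.0 CPM in primary WT libraries and at 80.0, 81.8 and 76.6 CPM in MlxKO libraries, all of them above WT. The rise of 0.48 ± 0.078 (adjusted p = 0.00102) was the only call among the 10 members in primary MlxKO cells, where 8.88% of all genes were called. With 1 library left out the members called there ran from 1 to 5. MycKO libraries at 62.8, 49.6 and 59.0 CPM and DKO libraries at 58.2, 58.6 and 58.5 CPM overlapped WT. In immortalized WT libraries Trib3 was at 38.9, 40.1 and 13.5 CPM, with library 4 low, and in MlxKO, MycKO and DKO libraries at 14.3, 21.8 and 22.7 CPM, 18.0, 24.7 and 22.1 CPM and 29.6, 26.7 and 26.2 CPM. None of the knockouts passed with all libraries (-0.51 ± 0.33, -0.36 ± 0.33 and -0.014 ± 0.33, adjusted p = 0.23, 0.386 and 0.98). Without library 4, Trib3 fell by 1.004 ± 0.18 in MlxKO (adjusted p = 0.000606) and by 0.85 ± 0.18 in MycKO (adjusted p = 0.00128), and DKO was at -0.51 ± 0.18 (adjusted p = 0.0586). The immortalized result for Trib3 thus rests on that library.

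Chac1 (ENSMUSG00000027313, chr2:119180757-119184866, plus strand) encodes an enzyme that degrades glutathione. Primary WT libraries were at 27.9, 36.9 and 29.3 CPM, and MlxKO at 37.2, 37.8 and 37.3 CPM, MycKO at 28.2, 24.8 and 32.2 CPM and DKO at 26.3, 25.8 and 28.1 CPM. No knockout passed against WT in primary cells (adjusted p = 0.14, 0.318 and 0.101). In immortalized cells WT libraries were at 20.0, 19.6 and 9.98 CPM and DKO libraries at 31.6, 26.6 and 26.7 CPM, and the groups did not overlap. Chac1 rose in DKO by 0.80 ± 0.23 (adjusted p = 0.0298), and by 0.49 ± 0.15 without WT library 4 (adjusted p = 0.0341), a call that was lost when any 1 DKO library was left out. MycKO libraries at 25.7, 23.2 and 23.4 CPM were also above WT (0.58 ± 0.23, adjusted p = 0.0525), but by 0.27 ± 0.15 without WT library 4 (adjusted p = 0.154). MlxKO libraries at 17.8, 25.8 and 24.8 CPM overlapped WT (0.48 ± 0.23, and 0.18 ± 0.15 without library 4).

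Sesn2 (ENSMUSG00000028893, chr4:132219335-132237815, minus strand) encodes a leucine sensor that restrains the growth kinase complex mTORC1. In primary cells it was at 83.3, 84.6 and 80.5 CPM in WT and 97.0, 89.3 and 97.9 CPM in MycKO libraries, a rise of 0.19 ± 0.06 (adjusted p = 0.0169). MlxKO libraries at 96.01, 91.5 and 88.6 CPM and DKO libraries at 87.3, 86.9 and 89.4 CPM were above WT as well but did not pass (adjusted p = 0.134 and 0.26). The MycKO call was lost without WT library 3, MycKO library 9 or MycKO library 11, and also under library-total scaling. Immortalized libraries ran from 28.6 CPM in WT library 4 to 53.9 CPM in WT library 2 and overlapped in all groups, with adjusted p-values against WT of 0.49 for MycKO, 0.783 for MlxKO and 0.733 for DKO. Its values in that order were 0.18 ± 0.20, 0.078 ± 0.20 and 0.11 ± 0.20, and -0.081 ± 0.15, -0.18 ± 0.15 and -0.15 ± 0.15 without library 4, so that their sign rests on that library.

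The largest change of any member against WT in each kind of cell lay in amino acid supply, that of Slc7a11 in MycKO. Asns (ENSMUSG00000029752, chr6:7671667-7728461, minus strand) encodes asparagine synthetase, which makes asparagine from aspartate and glutamine. Primary WT libraries were at 206, 202 and 221 CPM, MycKO at 169, 183 and 174 CPM and DKO at 165, 163 and 150.1 CPM. The libraries without Myc lay below all WT libraries, with falls by 0.26 ± 0.06 in MycKO (adjusted p = 0.00243) and 0.39 ± 0.06 in DKO (adjusted p = 4.56e-05) on the log2 scale. MlxKO libraries at 231, 237 and 240.4 CPM lay above WT (0.17 ± 0.06, adjusted p = 0.0864). In immortalized cells WT libraries were at 243, 200.4 and 169.5 CPM, and MlxKO at 104, 94.99 and 101 CPM, MycKO at 103, 112 and 129 CPM and DKO at 92.9, 105 and 118 CPM. All 9 knockout libraries were below the lowest WT library. Asns fell by 1.01 ± 0.14 in MlxKO (adjusted p = 0.000419), 0.82 ± 0.14 in MycKO (adjusted p = 0.000586) and 0.94 ± 0.14 in DKO (adjusted p = 0.000963), and every call held without WT library 4.

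Slc7a11 (ENSMUSG00000027737, chr3:49846975-50398070, minus strand) encodes the light chain of the exchanger that imports cystine for glutathione and exports glutamate, and the pair of cores shown above lies in its promoter. In primary cells WT libraries were at 26.2, 23.2 and 25.2 CPM and MlxKO libraries at 31.5, 29.6 and 23.0 CPM, and these overlapped (adjusted p = 0.562). MycKO libraries were at 7.15, 11.6 and 9.66 CPM and DKO libraries at 9.25, 10.6 and 8.75 CPM. Slc7a11 fell by 1.33 ± 0.14 in MycKO (adjusted p = 1.89e-06) and 1.3 ± 0.14 in DKO (adjusted p = 1.69e-06), the largest changes of any member in primary cells. Immortalized WT libraries were at 49.1, 29.1 and 29.9 CPM, MlxKO at 21.6, 17.3 and 15.9 CPM, DKO at 14.5, 14.1 and 13.1 CPM and MycKO at 4.14, 5.16 and 5.52 CPM. These 4 groups did not overlap and stood in that order, although MlxKO and DKO, neighbours in it, differed by -0.36 ± 0.20 with an adjusted p of 0.182. The fall was 0.91 ± 0.20 in MlxKO (adjusted p = 0.00402), 1.27 ± 0.20 in DKO (adjusted p = 0.00121) and 2.61 ± 0.20 in MycKO (adjusted p = 1.19e-06), and group means differed 7.30-fold between WT and MycKO.

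Slc7a5 (ENSMUSG00000040010, chr8:122607884-122634433, minus strand) encodes LAT1, which imports leucine and other large neutral amino acids. Primary libraries were at 348, 346 and 394 CPM in WT, 442, 448 and 391 CPM in MlxKO, 250.7, 286 and 265 CPM in MycKO and 285, 278 and 265 CPM in DKO cells. The groups without Myc lay below WT, with falls by 0.44 ± 0.072 (adjusted p = 0.000125) and 0.39 ± 0.072 (adjusted p = 0.000287). MlxKO was just outside the threshold (0.24 ± 0.072, adjusted p = 0.0521). Immortalized libraries were at 616, 497 and 359 CPM in WT, 312, 324 and 304 CPM in DKO, 258, 296 and 290.1 CPM in MlxKO and 167, 201 and 199 CPM in MycKO cells. Every knockout lay below WT, by 0.61 ± 0.16 in DKO (adjusted p = 0.0229), 0.77 ± 0.16 in MlxKO (adjusted p = 0.00381) and 1.34 ± 0.16 in MycKO (adjusted p = 4.97e-05). The DKO call was lost without any 1 DKO library or WT library 2, and it held without WT library 4 (-0.82 ± 0.12, adjusted p = 0.000298).

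Slc3a2 (ENSMUSG00000010095, chr19:8684245-8701108, minus strand) encodes the heavy chain, also called 4F2hc or CD98, that carries both of these light chains to the membrane. Its primary libraries spanned 156 to 203 CPM and overlapped in every group, with log2 fold changes of -0.12 ± 0.076 for MycKO, 0.053 ± 0.076 for MlxKO and -0.089 ± 0.076 for DKO (adjusted p = 0.2, 0.729 and 0.348). Immortalized WT libraries were at 187, 201 and 108 CPM and MycKO libraries at 127, 151 and 151 CPM. That comparison did not pass with library 4 (-0.16 ± 0.19, adjusted p = 0.514) and was a fall by 0.44 ± 0.12 without it (adjusted p = 0.00571). In MlxKO and DKO the values of 0.13 ± 0.19 and 0.15 ± 0.19 did not pass either (adjusted p = 0.608 and 0.603), and without library 4 they were -0.15 ± 0.12 and -0.13 ± 0.12. At the deposited scaling the heavy chain was therefore not called in the primary comparisons where both light chains fell. Under library-total scaling all 4 members of amino acid supply were called lower in primary MycKO against WT and DKO against MlxKO, and 3 in DKO against WT. Whether the change of the heavy chain differed from that of the light chains was not tested. Snhg1 exons on the opposite strand overlap 15.9% of the annotated Slc3a2 exon bases and 0% of its canonical transcript.

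Whether losing Mlx acted alike with and without Myc was tested by the interaction, the difference between DKO and MycKO less that between MlxKO and WT. Asns, Slc7a11 and Slc7a5 passed it in immortalized cells, where Mlx loss lowered all 3 when Myc was present. When Myc was absent, Slc7a11 was higher in DKO than in MycKO, at 14.5, 14.1 and 13.1 against 4.14, 5.16 and 5.52 CPM (1.33 ± 0.20, adjusted p = 0.000289). Slc7a5 was higher too, at 312, 324 and 304 CPM in DKO against 167, 201 and 199 CPM in MycKO libraries (0.73 ± 0.16, adjusted p = 0.0051). The MycKO and DKO libraries of neither gene overlapped, and per the study these cells differed in ploidy as well. The interaction was 2.25 ± 0.28 for Slc7a11 (adjusted p = 7.54e-05), 1.5 ± 0.23 for Slc7a5 (adjusted p = 0.000331) and 0.88 ± 0.20 for Asns (adjusted p = 0.00335). Asns itself was not called between MycKO and DKO (-0.13 ± 0.14, adjusted p = 0.537). These were 3 of 10 members, against 47.4% of all genes. Without WT library 4 the count was 6, with Atf5 (0.98 ± 0.16), Trib3 (1.35 ± 0.24) and Slc3a2 (0.46 ± 0.16) added, against 56.7% of all genes. The members called between immortalized DKO and MycKO were 2 of 10, against 29.4% of all genes, and between DKO and MlxKO 1 of 10, against 30.1%. The latter was Atf5, at 330.0, 264 and 266 CPM in DKO and 135, 165 and 164 CPM in MlxKO libraries (0.88 ± 0.25, adjusted p = 0.0203), and it was lost without DKO library 13 or MlxKO library 5. Without WT library 4 these counts were 4, with Atf4 (-0.27 ± 0.091) and Slc3a2 (0.31 ± 0.10) added, and 2, with Trib3 (0.50 ± 0.16) added, against 40.9% and 43.2% of all genes.

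**Figure D3:**
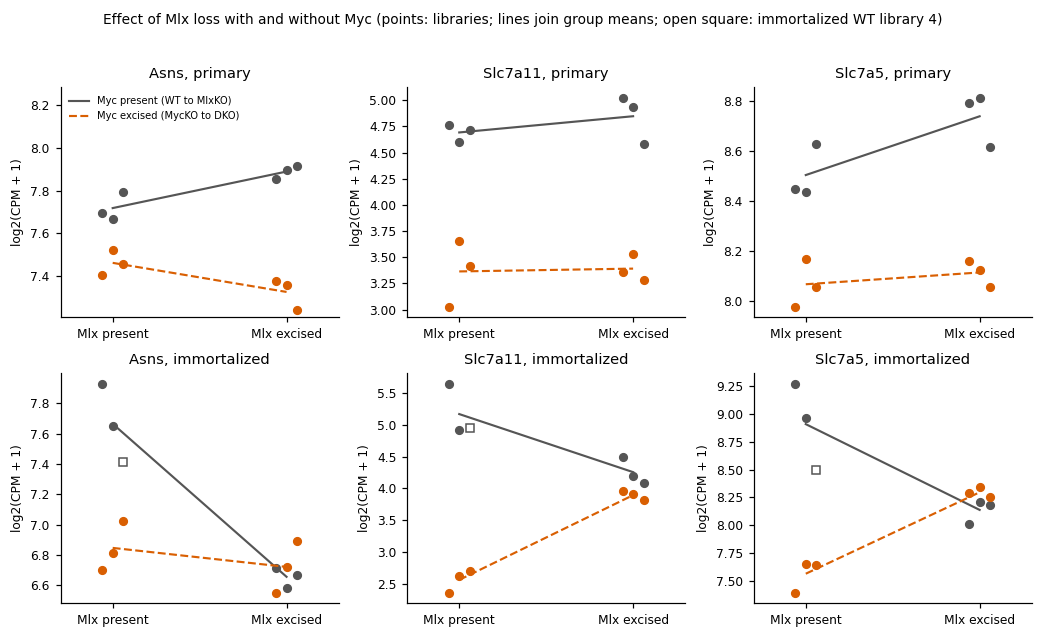
The log2(CPM + 1) of each library is plotted for Asns, Slc7a11 and Slc7a5 with Mlx present and excised, and lines join the group means with Myc present (solid) and excised (dashed). In immortalized cells the solid lines fall while the dashed line rises for Slc7a11 and Slc7a5, and in primary cells the solid and dashed lines stay apart.

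In primary cells the interaction went the other way for the 2 members that passed it, against 13.5% of all genes. Trib3 had an interaction of -0.44 ± 0.11 (adjusted p = 0.0117), since Mlx loss raised it in cells with Myc and DKO and MycKO differed by 0.039 ± 0.078 (adjusted p = 0.78). Asns had one of -0.31 ± 0.085 (adjusted p = 0.0214), which was lost without WT library 1, WT library 2 or DKO library 15. Leaving out MycKO library 10 raised the count of members from 2 to 5, all with a negative sign. Between primary DKO and MlxKO, the effect of Myc loss in cells without Mlx, 6 of 10 members were called against 49.1% of all genes. Atf5 rose (0.34 ± 0.067), and Trib3 (-0.44 ± 0.078), Chac1 (-0.47 ± 0.10), Asns (-0.57 ± 0.06), Slc7a5 (-0.63 ± 0.072) and Slc7a11 (-1.46 ± 0.14) fell. Between primary DKO and MycKO, limma called 0 of 10 members, against 21.5% of all genes. There edgeR and DESeq2 called 0 as well, against 21.8% and 23.2% of all genes.

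Beyond the 10 genes, most of the import, synthesis and charging genes on the lists below were called lower in MycKO and DKO against WT. The 4 lists of other ATF4 targets held 46 genes, of which 46 were tested in primary and 45 in immortalized cells. They were called lower in 28, 0 and 30 cases in primary MycKO, MlxKO and DKO and higher in 3, 7 and 4. In immortalized cells they were lower in 27, 20 and 28 cases and higher in 2, 2 and 2. Without WT library 4 the immortalized counts were 30, 24 and 30 lower and 4, 4 and 2 higher. Of all genes tested, 21.9%, 5.14% and 25.5% were called lower in primary MycKO, MlxKO and DKO and 20.4%, 3.75% and 24.0% higher. In immortalized cells the shares were 23.5%, 19.9% and 8.51% lower and 24.4%, 19.1% and 10.4% higher. The counts of every list below are to be read beside these shares. The lists were chosen with earlier results of these data known and are descriptions.

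Among 8 other amino acid transporters, 6 were lower in primary MycKO and 6 in immortalized MycKO, with medians of -0.42 and -0.79 against 0.00021 and -0.001 over all genes. Slc1a5, an importer of glutamine and other neutral amino acids, fell from 79.1 ± 1.98 CPM (SD, n = 3) to 37.5 ± 0.772 CPM in primary MycKO (-1.05 ± 0.068) and by 1.75 ± 0.14 in immortalized MycKO. Slc38a2, the importer SNAT2, was at -1.41 ± 0.14 and Slc6a9, a glycine importer, at -1.32 ± 0.23 in immortalized MycKO, where both were called. Slc38a1 fell most in immortalized DKO (-2.32 ± 0.14). Slc43a1, a transporter of large neutral amino acids, rose in immortalized MycKO (0.88 ± 0.20) and fell in MlxKO (-0.80 ± 0.20) and DKO (-0.95 ± 0.20). In primary MlxKO the calls were rises of Slc1a4 (0.52 ± 0.063) and Slc6a9 (0.41 ± 0.08).

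Of 14 enzymes of serine, one-carbon, proline and sulfur amino acid metabolism, 12 were lower in primary MycKO and 11 in DKO, and 12, 8 and 11 in immortalized MycKO, MlxKO and DKO. In immortalized MlxKO the count was 12 without WT library 4, and 4 lower and 1 higher under library-total scaling. Cth, which makes cysteine from cystathionine, fell in primary MycKO (-1.13 ± 0.087) and immortalized MycKO (-1.47 ± 0.26) and rose in primary MlxKO (0.70 ± 0.087, adjusted p = 0.000102). Psat1, of serine synthesis, fell from 399 ± 2.61 CPM in primary WT to 222 ± 15.01 CPM in MycKO and 189 ± 7.91 CPM in DKO (SD, n = 3). Mthfd1l and Shmt2, of mitochondrial one-carbon metabolism, fell by 0.95 ± 0.068 and 0.71 ± 0.075 in primary MycKO. Aldh1l2 of the same pathway fell by 1.97 ± 0.18 in immortalized MycKO, 1.21 ± 0.18 in MlxKO and 1.07 ± 0.18 in DKO. Pycr1, of proline synthesis, was called in immortalized MycKO (-0.95 ± 0.13) and MlxKO (-0.92 ± 0.13).

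The list for tRNA charging held 13 synthetases and the tRNA exporter Xpot. It was lower in 9 of 14 in primary MycKO and 13 of 14 in DKO, with 2 higher in MlxKO, and in 9, 5 and 9 of 14 in immortalized MycKO, MlxKO and DKO. Vars1 fell by 0.59 ± 0.059 in primary MycKO and 0.75 ± 0.059 in DKO, and Lars1 by 0.49 ± 0.062 and 0.64 ± 0.062. Xpot showed opposite signs in the 2 kinds of MlxKO cells, 0.27 ± 0.064 in primary and -1.001 ± 0.11 in immortalized MEFs, each past the threshold, and the kinds were not tested against each other. Eprs1 fell by 1.10 ± 0.13 in immortalized MycKO.

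The stress effectors outside amino acid supply had few calls in immortalized MycKO with all libraries, and their counts depended on the libraries and the scaling. Of 10 genes, 3 were higher and 1 lower in primary MycKO (0 and 1 under library-total scaling), and of 9 tested in immortalized cells 1 was higher in MycKO (2 higher and 3 lower without WT library 4), while MlxKO and DKO each had 2 higher and 2 lower. Fgf21 was below the filter in immortalized cells. Eif4ebp1, a brake on cap-dependent translation, rose in immortalized MycKO (0.93 ± 0.20) and MlxKO (0.85 ± 0.20). Ddit4, an inhibitor of mTORC1, rose in immortalized MlxKO (1.13 ± 0.20), and Gdf15, a secreted stress cytokine, in DKO (1.84 ± 0.37). Stc2, a secreted glycoprotein, fell in primary MycKO (-0.69 ± 0.11), primary DKO (-1.07 ± 0.11) and immortalized DKO (-1.67 ± 0.42, and -0.99, adjusted p = 0.00127 without WT library 4).

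**Figure D4:**
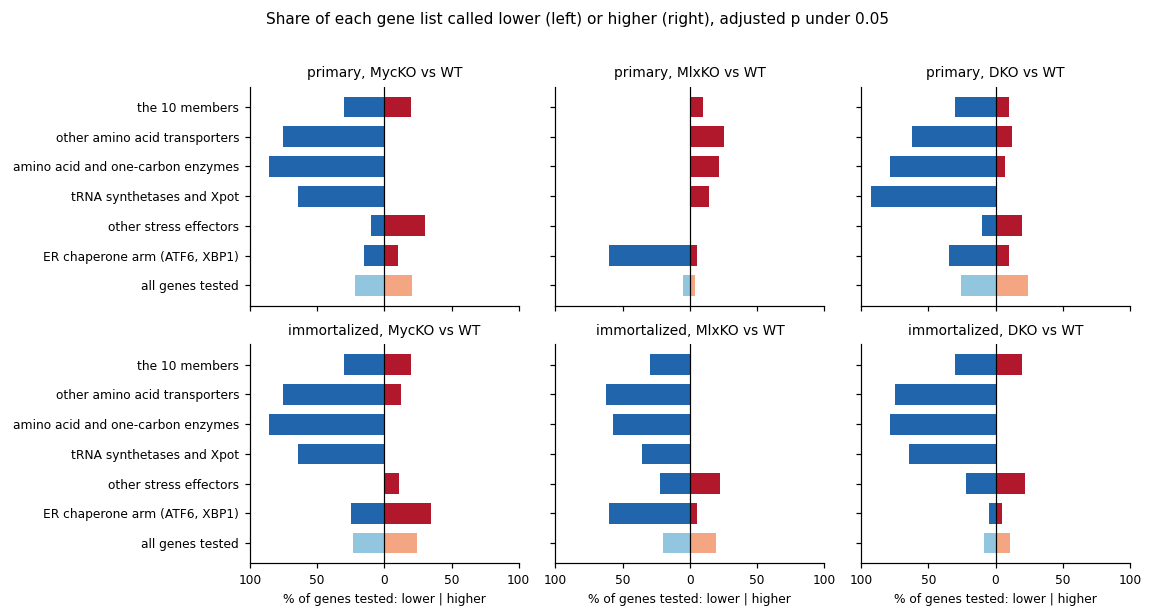
The share of each gene list called lower (left) or higher (right) against WT is plotted in percent of the genes tested, with all genes tested in pale bars. Transporters, enzymes and synthetases extend left in MycKO and DKO cells of both kinds, and in primary MlxKO cells these lists have no bar on the left. The ER chaperone list extends furthest left in MlxKO cells of both kinds, with shorter bars on the left in MycKO and DKO cells.

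The list of eIF2alpha kinases, phosphatase subunits and GCN2 regulators (10 genes) had, in higher and lower calls, 2 and 4, 1 and 0 and 2 and 2 in primary MycKO, MlxKO and DKO, and 0 and 4, 0 and 3 and 0 and 0 in the immortalized ones. Without WT library 4 the immortalized DKO count was 2 lower. Under library-total scaling the higher and lower calls were 1 and 4 in primary MycKO and 2 and 4 in primary DKO. Beside this list and that of ATF4 partners below, the shares of all genes called were 42.3%, 8.88% and 49.5% in primary MycKO, MlxKO and DKO. In immortalized cells they were 48.0%, 38.9% and 18.9%. None of the 4 eIF2alpha kinases was called higher in every knockout. Eif2ak3, encoding PERK, rose in primary MycKO (0.24 ± 0.065) and DKO (0.26 ± 0.065) and fell in immortalized MycKO (-0.59 ± 0.15) and MlxKO (-0.48 ± 0.15). Eif2ak4, encoding the amino acid sensor GCN2, fell in primary (-0.34 ± 0.091) and immortalized MycKO (-0.34 ± 0.13), the latter call being lost without WT library 4 (-0.31, adjusted p = 0.0775). Eif2ak2, encoding PKR, fell in primary MycKO (-0.73 ± 0.083), and Eif2ak1, encoding HRI, was not called against WT. The GCN2 inhibitor Impact rose in all 3 primary knockouts (0.36 ± 0.086, 0.40 ± 0.086 and 0.34 ± 0.086 in MycKO, MlxKO and DKO) and fell in immortalized MycKO (-0.70 ± 0.17) and MlxKO (-0.73 ± 0.17). Eif2s1, which encodes eIF2alpha, fell in primary MycKO (-0.49 ± 0.063) and DKO (-0.74 ± 0.063). The phosphatase subunit Ppp1r15b fell by 0.48 ± 0.094 in immortalized MlxKO, and the inducible subunit Ppp1r15a, also named GADD34 and itself a stress-response gene, was not called against WT in either table with all libraries. Without WT library 4 it was called lower in immortalized MycKO (-0.80, adjusted p = 0.000176) and MlxKO (-0.36, adjusted p = 0.0351). Of 8 factors that pair or act with ATF4, 7 were tested, with 2 and 0, 0 and 0 and 2 and 1 higher and lower calls in the primary knockouts in the same order and 2 and 2, 1 and 1 and 2 and 0 in the immortalized ones. Library-total scaling gave 2 and 2 in primary MycKO, 1 and 3 in primary DKO and 2 and 1 in immortalized MlxKO. Without WT library 4 the immortalized MlxKO count was 1 and 3. Cebpd rose in primary MycKO (0.47 ± 0.12) and DKO (0.75 ± 0.12) and in all 3 immortalized knockouts (1.24 ± 0.15 in MycKO), and Cebpg fell in immortalized MlxKO (-0.58 ± 0.11). Atf3 fell in immortalized MycKO (-2.14 ± 0.51), where WT libraries were spread widely (29.1 ± 21.9 CPM, SD, n = 3). Batf2 was below the filter in both tables.

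Of 10 paralogues and transport partners of the members 8 were tested, with 2 and 3, 1 and 1 and 2 and 3 higher and lower calls in primary MycKO, MlxKO and DKO and 1 and 4, 0 and 3 and 1 and 2 in the immortalized ones (2 and 3 in DKO without WT library 4). The shares of all genes called were 42.3%, 8.88% and 49.5% in primary and 48.0%, 38.9% and 18.9% in immortalized cells. Sesn3, a paralogue of Sesn2, rose in primary MycKO (0.53 ± 0.10), MlxKO (0.50 ± 0.10) and DKO (1.15 ± 0.10) and fell in immortalized MycKO (-2.17 ± 0.23), and Sesn1 fell in all 3 immortalized knockouts (-0.70 ± 0.13 in MycKO). Trib2, a paralogue of Trib3, rose in primary (0.78 ± 0.076) and immortalized MycKO (2.21 ± 0.41) and fell in primary MlxKO (-0.43 ± 0.076), the comparison in which Trib3 rose. Chac2 fell in primary DKO (-0.61 ± 0.13) and immortalized MlxKO (-0.68 ± 0.22), the latter call being lost without WT library 4 (-0.52, adjusted p = 0.064). Among other light chains that pair with Slc3a2, Slc7a6 fell in MycKO of both kinds (-0.34 ± 0.078 and -0.73 ± 0.13) and in DKO (-0.41 ± 0.078 and -0.53 ± 0.13). Slc7a8 went from 9.51 ± 4.43 CPM in primary WT to 1.53 ± 0.423 CPM in MycKO (SD, n = 3), a fall by 1.97 ± 0.25, in the groups that also differed in summed macrophage markers as given above. Slc7a10 and Slc3a1 were below the filter.

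Other stress pathways were read beside it. Of 20 genes of the ER chaperone arm, driven by ATF6 and XBP1, 12 were lower and 1 higher in primary MlxKO, where 8.88% of all genes were called, and 12 lower and 1 higher in immortalized MlxKO (10 and 3 without WT library 4). Creld2 (-0.58 ± 0.11), Sdf2l1 (-0.51 ± 0.13) and Pdia6 (-0.47 ± 0.069), proteins of folding in the ER, fell in primary MlxKO cells, in which Trib3 rose. In MycKO this list had 3 lower and 2 higher in primary cells, but 11 and 1 under library-total scaling, and 5 lower and 7 higher in immortalized cells (7 and 9 without WT library 4). In primary DKO it had 7 lower and 2 higher, where 25.5% of all genes were called lower and 24.0% higher. In immortalized DKO it had 1 lower and 1 higher, and 2 and 4 without WT library 4. Targets of NRF2, which shares Slc7a11 as a target, went in both directions in primary MycKO, with 2 of 10 higher, Nqo1 (0.44 ± 0.12) among them, and 4 lower, Gsr (-0.66 ± 0.08) among them. The shares of all genes there were 20.4% higher and 21.9% lower. In primary MlxKO and DKO the higher and lower calls were 0 and 1 and 2 and 4. In immortalized MycKO, MlxKO and DKO they were 3 and 1, 1 and 2 and 4 and 0. Library-total scaling gave 3 and 0 in immortalized MlxKO. In immortalized DKO 10.4% of all genes were called higher and 8.51% lower. Of 10 p53 targets, 6 were higher in primary MycKO (4 under library-total scaling), where 20.4% of all genes were called higher, with Cdkn1a (0.54 ± 0.056) and Phlda3 (0.46 ± 0.10) among them, and in immortalized cells, where T antigen binds p53, 4 were higher and 1 lower in MycKO and 5 and 2 in MlxKO.

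Levels were compared between genes per kilobase of the canonical transcript. In primary WT cells the order was Atf5 (198 ± 6.79 CPM per kb), Atf4 (156 ± 13.1), Slc7a5 (103 ± 7.77), Slc3a2 (74.5 ± 6.37), Ddit3 (49.8 ± 2.09), Asns (42.8 ± 2.05), Trib3 (27.1 ± 1.02), Sesn2 (23.8 ± 0.607), Chac1 (18.9 ± 2.90) and Slc7a11 (2.70 ± 0.163), as mean ± SD of 3 libraries, and none of the 9 pairs of neighbours overlapped. The same order of means held in primary MlxKO, MycKO and DKO cells, where Slc7a5 and Slc3a2, and Trib3 and Sesn2, overlapped in MycKO. In immortalized WT cells Slc7a5 stood highest (139.5 ± 36.5 CPM per kb) and Slc7a11 lowest (3.91 ± 1.22), and 6 of the 9 pairs of neighbours overlapped. Slc7a5 stood below Slc3a2 in immortalized MycKO cells, where the libraries of these genes overlapped.

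The pattern of each member over the 8 group means, on the log2(CPM + 1) scale and centred within each table, was compared with that of the other genes among 12402 tested in both tables. The measure was the root mean square difference, and it is a description over 8 points that share libraries. This measure is not scaled to the range of a gene. Slc7a11, with the widest range of the members (2.61 on the log2 scale), had the largest differences from its closest genes, Deptor (0.194), Inpp4b (0.229) and Galnt3 (0.254). Slc7a5 was matched by Xrcc5 (0.057), Ptpn4 (0.062) and Cnot6 (0.077), and Asns by Gm4631 (0.068), Tnpo1 (0.085) and Eif2s2 (0.086), the last of which encodes another subunit of eIF2. For Atf4 the closest were Ccdc166, Tor1a and Pigx (0.035 to 0.042), for Atf5 Ptprm, Snrpn and Bgn (0.051 to 0.077), and for Ddit3 Fam53a, Ube2m and B3gnt2 (0.062 to 0.080). Trib3 was matched by Arl6, Zfp119b and Tbc1d19 (0.056 to 0.075), Chac1 by Uap1l1, Cisd3 and Mrgbp (0.096 to 0.1003), Sesn2 by Spata2, Mbd1 and Pts (0.036 to 0.039) and Slc3a2 by Bap1, Lgals8 and Med24 (0.033 to 0.041). Sesn2 and Slc3a2 themselves varied little, with group means over ranges of 0.19 and 0.31 on the log2 scale.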

How the data were processed

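Triplicate RNA of each group was poly-A selected, made into directional libraries, sequenced on a NovaSeq instrument, and mapped to GRCm39 with CLC Genomics Workbench by the authors, who deposited the resulting signal as CPM in 1 table for primary and 1 for immortalized MEFs, with replicates kept apart. The deposited signal is scaled between libraries by a method not given in the sources used here, since the sums of the libraries differ (915691 to 1077213). Every value was a whole multiple of 1 read (100% within 0.01 read), which gave 15986856 to 20966163 reads per library.

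From the deposited values, log2(CPM + 1) was fitted with limma 3.58.1 in R 4.3.3 (trended prior, the 4 groups of a table together) for genes that reached 1 CPM in 3 or more of the 12 libraries, with 6 comparisons per table, Benjamini-Hochberg adjustment over all genes tested and a threshold of 0.05. An exact permutation test of 3 against 3 libraries cannot go below p = 0.10 and was not used. Fold changes of low genes are understated by the pseudocount of 1. Alternatives were DESeq2 1.42.0 and edgeR 4.0.16 run on these reads, other pseudocounts, filters, scalings, priors and thresholds, fits of only the groups compared, and the omission of each library. The members, gene lists and tests were chosen with earlier results of these data known. Members are named throughout, and of each list up to 4 called genes per comparison with the largest change, with kinases, phosphatase subunits, paralogues and transport partners added. For each member the 3 genes with the most similar pattern are named too. Gene places are from GENCODE vM39, promoters from RefSeq. Figures were drawn with matplotlib 3.10.9.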

Additional observations from a re-analysis of the deposited data

Results flagged for a closer look

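The effect of Mlx loss differed with Myc status for 3 members in immortalized cells, by the interaction term of limma: Slc7a11 (2.25 ± 0.28, adjusted p = 7.54e-05), Slc7a5 (1.5 ± 0.23, adjusted p = 0.000331) and Asns (0.88 ± 0.20, adjusted p = 0.00335). These 3 of 10 stand beside 47.4% of all genes. It differed for 2 members in primary cells, Trib3 (-0.44 ± 0.11, adjusted p = 0.0117) and Asns (-0.31 ± 0.085, adjusted p = 0.0214), beside 13.5% of all genes. Asns thus has an interaction of opposite sign in the 2 kinds of cell.

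Asns also had values of opposite sign after Mlx loss alone, without a test of the difference. Its log2 fold change was 0.17 ± 0.06 in primary MlxKO, where all libraries lay above WT, and -1.01 ± 0.14 in immortalized MlxKO, where all lay below. The primary value did not pass the threshold (adjusted p = 0.0864), and the difference between the tables was not tested, because they were normalized separately.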

How the results depend on the processing

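No member changed sign under any alternative in a comparison where it was called. Under alternatives other than leaving out a library, 1140 values of single members kept their side of the threshold, 26 passed it newly and 14 lost it, and with a library left out these were 1392, 31 and 17. The number of members called moved by over 1.5 times in the following settings. For primary MlxKO against WT (1 member) it was 2 with a mean of at least 5 CPM, 2 with a robust prior, 2 with DESeq2 and 3 with library-total scaling. For the primary interaction (2) it was 0 at an adjusted p under 0.01. For immortalized MlxKO against WT (3) it was 5 with library-total scaling. For immortalized DKO against WT (5) it was 2 at an adjusted p under 0.01 and 2 with only the groups compared, for DKO against MycKO (2) it was 4 with only the groups compared, and for DKO against MlxKO (1) it was 4 with only the groups compared, 0 with library-total scaling and 0 at an adjusted p under 0.01. For the 4 lists of other ATF4 targets, primary MlxKO (7) gave 3 at an adjusted p under 0.01, and immortalized DKO (30) gave 16 at that threshold and 17 with only the groups compared.

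With 1 library left out, members called ranged from 4 to 5 in primary MycKO, 1 to 5 in MlxKO (5 without MycKO library 10, 3 without WT library 3, and 2 without WT library 2 or MlxKO library 7) and 4 to 5 in DKO, from 0 to 1 between DKO and MycKO (1 without MycKO library 10), 6 to 6 between DKO and MlxKO and 1 to 5 in the interaction (5 without MycKO library 10, 1 without WT library 1 or DKO library 15). In immortalized cells they ranged from 5 to 7 in MycKO, 3 to 5 in MlxKO, 2 to 5 in DKO (2 without DKO library 13 or 15, 3 without DKO library 14), 2 to 4 between DKO and MycKO, 0 to 2 between DKO and MlxKO (0 without DKO library 13 or MlxKO library 5) and 3 to 6 in the interaction, where the highest counts in MycKO, MlxKO, DKO against MycKO, DKO against MlxKO and the interaction came without WT library 4. The 4 lists ranged from 25 to 33, 4 to 13 (13 without MycKO library 10, 4 without WT library 1 or 2) and 32 to 38 in primary MycKO, MlxKO and DKO and from 27 to 34, 17 to 28 and 20 to 32 in immortalized cells. The cause of these moves was not tested.

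Library-total scaling shifted the median of all genes by 0.153 in immortalized MlxKO against WT, -0.156 in DKO against MlxKO and -0.163 in the interaction, and by -0.103 in primary DKO against MlxKO. Among calls over all genes, the share that was higher then went from 49.0% to 70.0%, from 54.0% to 29.1%, from 49.9% to 37.2% and from 47.3% to 32.4% in these, and from 48.3% to 31.3%, 42.2% to 53.7% and 48.5% to 37.1% in primary MycKO, MlxKO and DKO against WT. On the recovered reads, edgeR called 5565, 1193 and 6503 genes in primary MycKO, MlxKO and DKO and 6106, 4925 and 2393 in immortalized ones. No paired analysis was possible because each column is numbered by library and the labels do not link those numbers to replicates. The interaction cannot be fitted with only the groups compared, since it uses all 4. Depth limits Slc7a11 most, since it was at 4.14 to 5.52 CPM in immortalized MycKO libraries.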
